A study of Mus musculus with 71 samples.

Results

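*Lyz1*, *Mmp7*, *Ang4*, *Itln1*, *Mptx1* and *Mptx2* are grouped here as Paneth cell genes other than the defensins. Of these, *Mptx1* was far higher in colon than in small intestine tissue. These 6 genes were taken by name from the 3 bulk RNA-sequencing tables, and all 6 were found among the 24475 gene IDs of each table. They were followed by gut segment, by tissue, by cell fraction and by genotype in 65 bulk libraries, and then in 6 single-cell libraries.

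All animals were C57BL/6 mice. *Btnl2*-KO mice (labelled *Btnl2*-/-) carry a LacZ cassette at the start codon of *Btnl2*, a butyrophilin-like gene of the intestinal epithelium, and were littermates of the WT mice and housed together with them. Intestinal epithelial cells (IECs) came from mice labelled 7 weeks old, with 2 *Btnl2*-KO and 3 WT duodenal libraries, 3 jejunal libraries of each genotype, and 3 *Btnl2*-KO and 2 WT ileal libraries. γδ intraepithelial lymphocytes (γδ IELs), T cells that sit between epithelial cells, were sorted from mice labelled 10 weeks old as CD45+TCRβ-TCRγδ+ cells, each library from a pool of 2 mice according to the methods of the study. They gave 3 *Btnl2*-KO and 4 WT duodenal, 4 and 4 jejunal, and 3 and 4 ileal libraries. Whole tissue from mice whose labels give the age only as YNG gave 14 small intestine libraries, 7 of each genotype, and 13 colon libraries, 7 *Btnl2*-KO and 6 WT. The labels name no treatment for these groups, and the 3 tables come from separate experiments, so levels are set side by side between tables and were tested only within a table. Libraries held 15397757 to 38258472 counts in the IEC table, 13444958 to 30029485 in the γδ IEL table and 13619309 to 21708721 in the tissue table.

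Paneth cells are secretory cells at the base of the small intestinal crypts, next to the stem cells, and the healthy mouse colon has few or none. They release granules that hold antimicrobial proteins into the crypt lumen. Among them, *Lyz1* encodes the Paneth cell lysozyme, which cleaves the peptidoglycan of bacterial walls, while its neighbour *Lyz2* serves macrophages and other myeloid cells. *Mmp7* encodes matrilysin, the metalloproteinase that cuts the α-defensin precursors into their active form in mice. *Ang4* encodes a secreted ribonuclease of the angiogenin family with bactericidal activity, and *Itln1* encodes intelectin, a lectin that binds sugars of microbial surfaces. *Mptx1* and *Mptx2* encode mucosal pentraxins, relatives of the serum pentraxins.

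The 2 mucosal pentraxin genes and the 2 lysozyme genes are near copies whose levels nevertheless differed widely between fractions, so their start regions are shown first. The windows below run from 250 bases before to 50 bases after the annotated start, 5′ to 3′ on the strand of the gene, and are RefSeq sequence of GRCm38.p6. Capitals mark GTTAAT, part of the site of HNF1 factors, and CTTTGA, a core of TCF/LEF sites, on either strand.
Mptx1 (chr1:174330268-174330567, plus strand): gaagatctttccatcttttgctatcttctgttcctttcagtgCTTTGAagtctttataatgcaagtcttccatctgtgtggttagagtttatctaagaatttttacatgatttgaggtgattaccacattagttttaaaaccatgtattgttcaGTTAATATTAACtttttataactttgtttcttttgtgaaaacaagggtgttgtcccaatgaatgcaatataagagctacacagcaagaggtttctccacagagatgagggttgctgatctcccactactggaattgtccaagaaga
Mptx2 (chr1:173277707-173278006, minus strand): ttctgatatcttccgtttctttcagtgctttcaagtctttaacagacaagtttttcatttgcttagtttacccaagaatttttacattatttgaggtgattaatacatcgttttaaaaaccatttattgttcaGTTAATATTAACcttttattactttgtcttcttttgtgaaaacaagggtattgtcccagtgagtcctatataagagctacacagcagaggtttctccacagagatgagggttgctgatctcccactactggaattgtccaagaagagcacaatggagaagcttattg
Lyz1 (chr10:117292819-117293118, minus strand): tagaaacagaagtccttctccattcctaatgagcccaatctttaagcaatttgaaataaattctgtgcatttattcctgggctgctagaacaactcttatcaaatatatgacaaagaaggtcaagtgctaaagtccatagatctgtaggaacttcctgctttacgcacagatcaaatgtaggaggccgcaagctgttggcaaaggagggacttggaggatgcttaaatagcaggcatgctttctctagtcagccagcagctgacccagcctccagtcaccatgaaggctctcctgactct
Lyz2 (chr10:117282223-117282522, minus strand): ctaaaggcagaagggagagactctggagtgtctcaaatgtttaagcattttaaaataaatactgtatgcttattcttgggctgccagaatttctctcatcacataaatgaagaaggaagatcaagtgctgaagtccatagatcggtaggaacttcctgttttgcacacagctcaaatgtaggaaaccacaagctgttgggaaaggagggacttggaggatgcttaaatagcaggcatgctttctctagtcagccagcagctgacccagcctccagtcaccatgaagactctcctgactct

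The *Mptx1* and *Mptx2* windows were identical at 247 of 278 aligned bases (88.85%), and those of *Lyz1* and *Lyz2* at 249 of 298 (83.56%). GTTAAT and its reverse complement ATTAAC lie side by side in both pentraxin windows, starting 96 and 90 bases before the start of *Mptx1* and 117 and 111 bases before that of *Mptx2*. CTTTGA lies 208 bases before the start of *Mptx1*, and its reverse complement TCAAAG lies 5 bases after the first annotated start of *Mmp7* (chr9:7691840-7692139, plus strand). TATAAA, the letters of a TATA box, was found without overlap with those matches in the *Mptx1* window and the first *Mmp7* window. In *Mptx1* both matches, 198 and 82 bases before the start, were its reverse complement TTTATA. The *Mmp7* matches lie 123 and 26 bases before the first annotated start. No motif of the 3 was found in the windows of *Lyz1*, *Lyz2*, *Ang4* or *Itln1*. Of 32851 windows of this length, 7.10% held GTTAAT, 16.003% held CTTTGA and 13.6% held TATAAA on either strand. A match describes the letters and is no measured binding site.

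In GRCm38.p6 *Lyz1* (gene ID 17110) lies on chromosome 10 from 117287795 to 117292868, 5522 bases from *Lyz2*. *Mmp7* (17393) lies on chromosome 9 from 7692090 to 7699585 and *Ang4* (219033) on chromosome 14 from 51763892 to 51773590. *Itln1* (16429) lies on chromosome 1 from 171518123 to 171535325, *Mptx2* (100504232) from 173274461 to 173277756 and *Mptx1* (66289) from 174330518 to 174332877 on the same chromosome. The annotated transcripts of *Mptx1* and *Mptx2* were identical at 734 of 794 aligned bases, and 17.9% of the 50-base windows of *Mptx1* and 17.99% of those of *Mptx2* occurred also in the other gene. For *Lyz1* 16.1% of such windows occurred in *Lyz2*, for *Ang4* 4.70% in 2 other genes, for *Itln1* 1.01% in *Gm9765* and for *Mmp7* none. Reads from shared windows may have been split between the copies by the counting, and the levels of each pair carry that limit.

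Some libraries went against their labels or stood apart from their group. They were judged by *Btnl2*, by *Fabp6*, an ileal bile acid carrier, by *Gata4*, a transcription factor of the proximal small intestine, and by *Car1*, a colonic carbonic anhydrase. *Btnl2* was at 25.1 to 67.7 CPM (counts scaled to a common library size) in WT IEC libraries and at 0.34 to 0.59 CPM in 6 of 8 *Btnl2*-KO IEC libraries, but at 5.45 CPM in the library labelled duodenal *Btnl2*-KO 1003459 and at 19.5 CPM in the library labelled jejunal *Btnl2*-KO 1003474. Those 2 libraries also held *Fabp6* at 220 and 484 CPM and *Gata4* at 50.7 and 37.7 CPM, whereas the library labelled ileal *Btnl2*-KO 1003481 held *Fabp6* at 0.23 CPM and *Gata4* at 153 CPM. In γδ IELs *Btnl2* separated the genotypes (0 to 0.12 CPM against 2.47 to 9.89 CPM), as it did in small intestine tissue (0.67 to 2.44 against 23.9 to 103) and colon tissue (0 to 0.05 against 0.65 to 2.40). Among the small intestine libraries, WT 964947 and 964948 held *Car1* at 846 and 1624 CPM, and *Btnl2*-KO 964939 and WT 964950 held *Gata4* at 95.6 and 82.7 CPM with *Fabp6* at 431 and 105 CPM. The tissue labels name no part of the small intestine, so 964939 and 964950 stood apart from their group without going against a label. The libraries set apart here are called doubted below. Values without them are given beside the results described in most detail, and the group ranges include them.

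*Lyz1* was the highest of the 6 transcripts and *Mptx1* the lowest in all 16 IEC and all 22 γδ IEL libraries, and in 11 of 14 small intestine tissue libraries. Per kilobase of transcript, the scale used wherever genes are compared, the median over 16 IEC libraries was 2643 CPM per kb for *Lyz1*, 1277 for *Itln1*, 782 for *Mptx2*, 415 for *Ang4*, 148 for *Mmp7* and 3.77 for *Mptx1*. *Lyz1* exceeded *Itln1* in all 16 IEC libraries, and the ranges of the 2 genes overlapped in the ileal *Btnl2*-KO group alone. Those of *Itln1* and *Mptx2* overlapped in WT duodenum, WT ileum, *Btnl2*-KO jejunum and *Btnl2*-KO ileum. In *Btnl2*-KO jejunum the *Mptx2* median was above that of *Itln1* (1641 against 1426 CPM per kb). Without the 3 IEC libraries that went against their labels the medians over the IEC libraries kept their order, from 2752 for *Lyz1* to 3.94 for *Mptx1*. Small intestine tissue gave the order *Lyz1*, *Itln1*, *Ang4*, *Mptx2*, *Mmp7* and *Mptx1*, with medians of 4050, 1676, 805, 484, 159 and 4.87 CPM per kb over 14 libraries, and in its WT group the ranges of all neighbours in that order overlapped. Without the 4 doubted libraries the order of the medians was alike, with 1052 for *Ang4*, 614 for *Mptx2* and 8.31 for *Mptx1*. In libraries 964941, 964945 and 964946 *Ang4* was above *Lyz1* and *Mptx1* above *Mmp7* on this scale. In colon the order turned over: *Mptx1* led with a median of 2487 CPM per kb over 13 libraries, followed by *Ang4* at 49.6, *Lyz1* at 12.2, *Mptx2* at 4.57, *Itln1* at 1.82 and *Mmp7* at 0.157. In WT colon *Ang4* and *Lyz1* overlapped, as did *Mptx2* and *Itln1*, and in *Btnl2*-KO colon all neighbours in the order overlapped.

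Taken as a sum, the 6 genes held 0.243 to 1.12% of the counts of an IEC library, 0.513 to 1.57% in small intestine tissue and 0.149 to 1.77% in colon. The γδ IEL libraries spread most widely, from 0.00491% to 2.80%. The ratio of the highest to the lowest library shows the same spread for single genes: for *Lyz1* it was 2.49 in small intestine tissue, 6.59 in IECs and 679 in γδ IELs, where the lowest value came from the jejunal *Btnl2*-KO library 1105592.

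**Figure D1:**
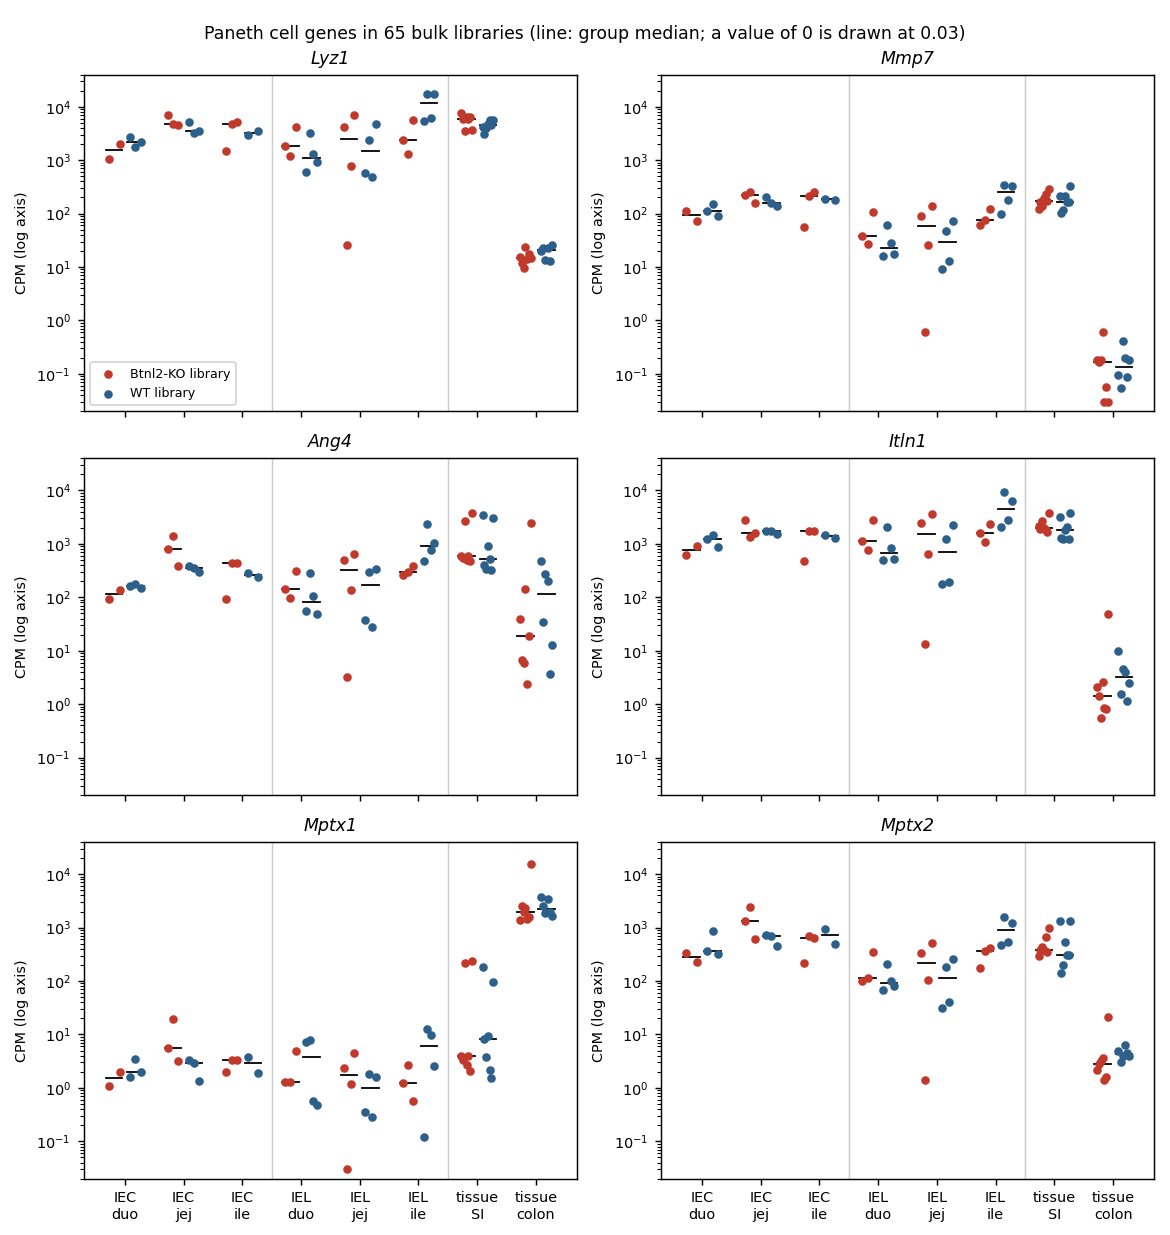
Levels of the 6 genes in all 65 bulk libraries. Each point is a library in CPM on a log axis (*Btnl2*-KO in red, WT in blue), the bars are group medians and a value of 0 is drawn at 0.03. *Mptx1* is higher in colon than in small intestine tissue. By group median the other 5 genes are lower in colon than in small intestine tissue, with overlap of libraries for *Ang4*.

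Colon and small intestine tissue were compared in WT libraries to place each gene along the gut. All 6 differed by edgeR's quasi-likelihood test, 5 lower in colon and *Mptx1* higher, where a call means a fold change over 1.5 and a false discovery rate (FDR) below 0.05. Of 15162 genes tested, 12.0% were called higher, 15.6% lower and 27.6% in either direction. The groups did not overlap for 5 of the 6 genes, against 24.8% of all genes.

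*Lyz1* ranged from 3060 to 5619 CPM in 7 WT small intestine libraries, with a median of 4547, and from 12.9 to 26.2 CPM in 6 WT colon libraries, with a median of 21.1. The lowest small intestine library thus stood far above the highest colon library, and the log2 fold change was -7.88 ± 0.26 (SE; FDR = 3.3e-11). *Lyz2*, the myeloid lysozyme, was at 61.2 to 147 CPM in WT small intestine and 50.9 to 122 CPM in WT colon. *Mmp7* had 1 to 7 counts in each WT colon library, that is 0.0538 to 0.409 CPM, against 101 to 327 CPM in small intestine (log2 fold change -10.12 ± 0.42). *Itln1* was at 1.13 to 9.77 CPM in WT colon and 1235 to 3839 CPM in WT small intestine (log2 fold change -9.07 ± 0.63). These 3 genes showed no overlap between the tissues.

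*Mptx1* and *Mptx2* went in opposite directions. *Mptx1* was at 3779, 2528, 1847, 3454, 1982 and 1616 CPM in the 6 WT colon libraries and reached 180, 8.40, 3.74, 9.39, 2.12, 1.56 and 96.0 CPM in the 7 libraries of WT small intestine. *Mptx2* was at 4.93, 3.01, 3.92, 6.30, 4.47 and 4.03 CPM in the same colon libraries and at 1338, 144, 204, 548, 314, 303 and 1354 CPM in the same small intestine libraries. Neither gene overlapped between the tissues, and the log2 fold changes were 5.87 ± 1.11 for *Mptx1* (FDR = 0.000595) and -7.10 ± 0.64 for *Mptx2* (FDR = 6.19e-07). *Mptx2* amounted to 0.0957 to 0.249% of *Mptx1* in colon libraries, and *Mptx1* to 0.294 to 0.904% of *Mptx2* in IEC libraries, although the 2 start regions shown above are 88.85% identical.

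*Ang4* was the most uneven of the 6 genes in colon. The WT colon libraries held 486, 35.2, 276, 199, 3.65 and 12.99 CPM, and those of WT small intestine held 3495, 406, 338, 897, 526, 326 and 3088 CPM. The highest colon value lay within the small intestine range, and the log2 fold change was -2.96 ± 1.02 (FDR = 0.0271). The call was lost without colon library 964933 or without small intestine library 964946 or 964952, with FDRs of up to 0.0550, and in a fit over all 27 tissue libraries (FDR = 0.0663).

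Other genes of the Paneth cell and its lineage were read beside them. All 28 α-defensin genes tested were lower in colon, with a median log2 fold change of -12.21 (-0.02 over all genes). Of 16 regulators and niche factors of the secretory lineage, 3 were higher in colon (*Atoh1*, the transcription factor that starts the secretory fate, *Egf* and *Sox9*) and 5 lower (*Clps*, *Bhlha15*, *Pla2g2a*, *Wnt3* and *Habp2*). Without the 3 WT small intestine libraries whose *Car1* or *Gata4* went against the rest, all 6 genes were again called, as were 28.0% of all genes, with log2 fold changes of -7.95 for *Lyz1* and 5.14 for *Mptx1*. In bulk samples fewer cells of a type and less RNA per cell cannot be told apart, here and below.

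Along the small intestine, WT IEC libraries showed modest differences. No member was called in any of the 3 segment comparisons by edgeR, and the share of all genes called was 0.320% for jejunum against duodenum, 4.42% for ileum against duodenum and 1.13% for ileum against jejunum. By direction this was 0.168% higher and 0.152% lower in jejunum, 2.78% higher and 1.64% lower in ileum than in duodenum, and 0.769% higher and 0.357% lower in ileum than in jejunum. At an unadjusted p under 0.05, 2 members were higher in jejunum than in duodenum (6.05% of all genes) and 2 higher in ileum than in duodenum (9.41%), and none passed between ileum and jejunum (8.18% in either direction). According to its methods the study cut each small intestine into 3 segments, so libraries of different segments may come from the same mice. The labels tie no libraries to a mouse, and the segment and interaction tests, like the fits over several segments, treat libraries as independent.

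*Ang4*, the ribonuclease, was at 161, 177 and 147 CPM in WT duodenum, 391, 357 and 304 CPM in WT jejunum and 284 and 240 CPM in WT ileum. The duodenal libraries lay below all others without overlap, and the log2 fold changes against duodenum were 1.14 ± 0.18 in jejunum (FDR = 0.0581) and 0.71 ± 0.21 in ileum (FDR = 0.136). Between ileum and jejunum the *Ang4* difference was -0.41 ± 0.19 (FDR = 0.675). *Lyz1* was at 2723, 1736 and 2157 CPM in WT duodenum, 5168, 3201 and 3502 in WT jejunum and 2940 and 3475 in WT ileum, again with duodenum lowest and no overlap with jejunum (log2 fold change 0.86 ± 0.29, FDR = 0.360). *Mmp7* was at 113, 149 and 90.8 CPM in WT duodenum and 191 and 182 CPM in WT ileum, without overlap (0.67 ± 0.26, FDR = 0.251).

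With both genotypes in the fit and the 3 libraries that went against their labels left out, edgeR called *Ang4* higher in jejunum than in duodenum (log2 fold change 1.43), where 1.76% of all genes were called higher, and 3 of 6 members higher in ileum than in duodenum, where 8.09% were. Among the WT libraries the groups did not overlap for 3 members in jejunum against duodenum (19.9% of all genes) and 3 in ileum against duodenum (37.3%), so those counts are read against high shares. In the same WT comparison of ileum with duodenum, 8 of 27 α-defensin genes rose in ileum with a median log2 fold change of 0.95, and so did 3 of 16 lineage regulators (*Atoh1*, *Pla2g2a* and *Spdef*) and 2 of 7 goblet cell genes (*Muc2* and *Agr2*).

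The sorted γδ IEL libraries held the same 6 transcripts, at levels that varied in part with epithelial transcripts. The summed level of 10 γδ IEL genes was 34225 to 92540 CPM in these libraries and 22.6 to 383 CPM in IECs. The summed level of 12 pan-epithelial genes was 605 to 9223 CPM in γδ IEL libraries against 8901 to 14518 CPM in IEC libraries. The members summed to 44.6 CPM in the jejunal *Btnl2*-KO library 1105592, which also had the lowest pan-epithelial sum, and to 31138 CPM in an ileal WT library. The ratio of the members' sum to the pan-epithelial sum was not constant. It ran from 0.0738 to 3.75 over 22 γδ IEL libraries, against 0.163 to 1.09 over 16 IEC libraries. Values of the pan-epithelial list are therefore given beside each γδ IEL result.

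In WT γδ IEL libraries the ileum stood above the duodenum and the jejunum. Against duodenum, 4 of 6 members rose in ileum (*Lyz1*, *Mmp7*, *Ang4* and *Mptx2*), where 1.15% of all genes were called higher and 2.16% in either direction. Against jejunum, 5 of 6 rose, *Itln1* being the fifth, where 10.8% of all genes were called higher and 21.7% in either direction. Between jejunum and duodenum no member was called, while 23.3% of all genes were, and none had an unadjusted p under 0.05, against 46.6% of all genes.

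*Lyz1* was at 611, 3287, 1308 and 913 CPM in WT duodenum, 587, 2374, 478 and 4778 CPM in WT jejunum and 5506, 17589, 6233 and 17026 CPM in WT ileum. Every ileal library was above every library of the other segments, with log2 fold changes of 2.92 ± 0.57 against duodenum (FDR = 0.0193) and 2.53 ± 0.72 against jejunum (FDR = 0.0232). *Mmp7*, the defensin-processing protease, was at 15.8, 61.6, 27.9 and 17.8 CPM in duodenum and 97.6, 336, 183 and 329 CPM in ileum, with no overlap (2.94 ± 0.48, FDR = 0.00696). *Ang4* was at 56.2, 282, 106 and 47.8 CPM in duodenum and 470, 2358, 780 and 1048 CPM in ileum, also apart (3.24 ± 0.62, FDR = 0.0182). *Mptx2* gave 3.06 ± 0.46 against duodenum (FDR = 0.00417) and 2.92 ± 0.69 against jejunum (FDR = 0.0107).

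*Itln1* rose against jejunum (log2 fold change 2.44 ± 0.81, FDR = 0.0403) and gave 2.37 ± 0.56 against duodenum (FDR = 0.0556). *Mptx1* was the exception, at 7.14, 7.80, 0.574 and 0.471 CPM in duodenum and 0.119, 12.8, 9.73 and 2.54 CPM in ileum, with 2 to 179 counts behind the ileal values. The groups overlapped and the difference was 0.64 ± 1.02 (FDR = 0.897). Ileum against jejunum gave 2.60 ± 0.99 for *Mptx1* (FDR = 0.0658), and jejunum against duodenum gave -1.95 ± 0.91 (FDR = 0.117), where *Lyz1* gave 0.41 ± 0.71.

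Groups did not overlap for 4 members in ileum against duodenum (6.10% of all genes) and 4 in ileum against jejunum (32.9%). Against duodenum, 15 of 24 α-defensin genes rose in ileum (median log2 fold change 3.01), as did 5 of 16 lineage regulators (*Atoh1*, *Pla2g2a*, *Wnt3*, *Habp2* and *Spdef*; median 1.37) and 3 of 7 goblet cell genes (median 1.74), and 1 of 12 pan-epithelial genes (*Krt18*; median 0.59). The pan-epithelial sums were 3293 to 5327 CPM in WT duodenum, 2050 to 5686 in WT jejunum and 3464 to 9223 in WT ileum. With the pan-epithelial level as a covariate, an alternative chosen after seeing the data, the same 4 members rose against duodenum, with log2 fold changes of 2.31 for *Lyz1*, 2.21 for *Mmp7*, 2.38 for *Ang4* and 2.48 for *Mptx2*, and 0.798% of all genes were called higher. In that fit *Itln1* gave 1.57, and *Mptx1* turned from 0.64 to -3.42 ± 0.76 (FDR = 0.0403).

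These γδ IEL segment calls depended on the fit. In a fit over all 22 γδ IEL libraries 0 members were called in either comparison, where 0.463% of all genes were higher than in duodenum and 4.13% higher than in jejunum. Without library 1105592 the same fit called 3 against duodenum (0.901% of all genes) and 5 against jejunum (7.02%). With both genotypes and genotype as a covariate, 1 member was called against duodenum (0.980% of all genes) and 0 against jejunum (0.0399%), and the counts without 1105592 were 1 and 0 (0.980% and 0.0480%). Leaving out each WT library in turn gave 2 to 5 calls against duodenum, the lowest without duodenal library 1105579, 1105581 or 1105582, and 2 to 6 against jejunum, the lowest without ileal library 1105588 or jejunal library 1105595, with 3 calls without ileal library 1105590.

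**Figure D2:**
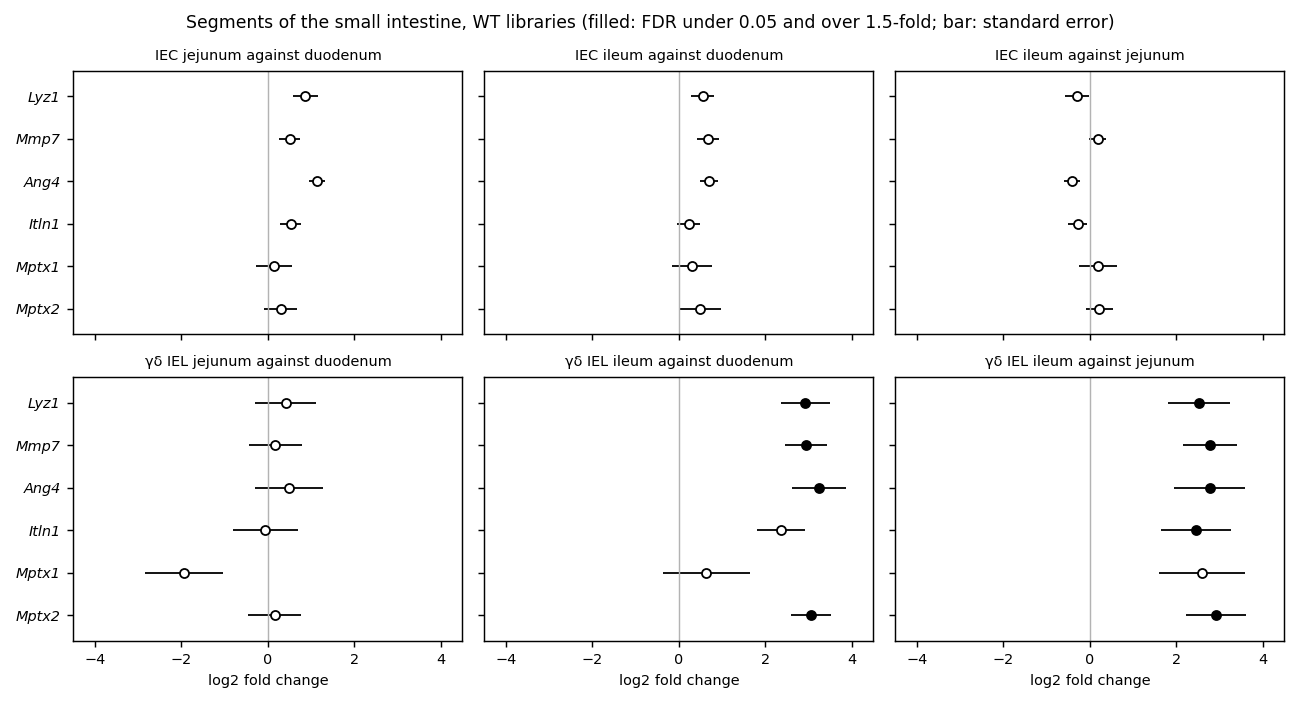
Segment differences of the 6 genes in WT IEC libraries (top) and WT γδ IEL libraries (bottom). Points are log2 fold changes, bars their standard errors and filled points those past an FDR of 0.05 and 1.5-fold; only the γδ IEL ileum panels hold filled points, 4 against duodenum and 5 against jejunum.

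The study's main contrast set *Btnl2*-KO against WT in each segment and tissue. The study used DESeq2, which here called 5 members and 1.38% of all genes lower in γδ IEL ileum, as given below. By edgeR no member was called in any of the 8 comparisons. The share of all genes called was 0% in IEC duodenum, 0% in IEC jejunum, 0.00774% in IEC ileum, 0.00789% in γδ IEL duodenum, 0.00794% in γδ IEL jejunum, 0% in γδ IEL ileum, 0.0202% in small intestine tissue (0.0135% higher, 0.00673% lower) and 0.0269% in colon tissue (0.0134% in each direction). At an unadjusted p under 0.05, 3 members were higher in *Btnl2*-KO jejunal IECs, as were 6.12% of all genes, and 5 were lower in *Btnl2*-KO ileal γδ IELs, as were 6.32%. None passed in the other 6 comparisons, where the share of all genes in either direction was 1.22% in IEC duodenum, 2.07% in IEC ileum, 2.07% in γδ IEL duodenum, 6.39% in γδ IEL jejunum, 23.0% in small intestine and 4.14% in colon.

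**Figure D3:**
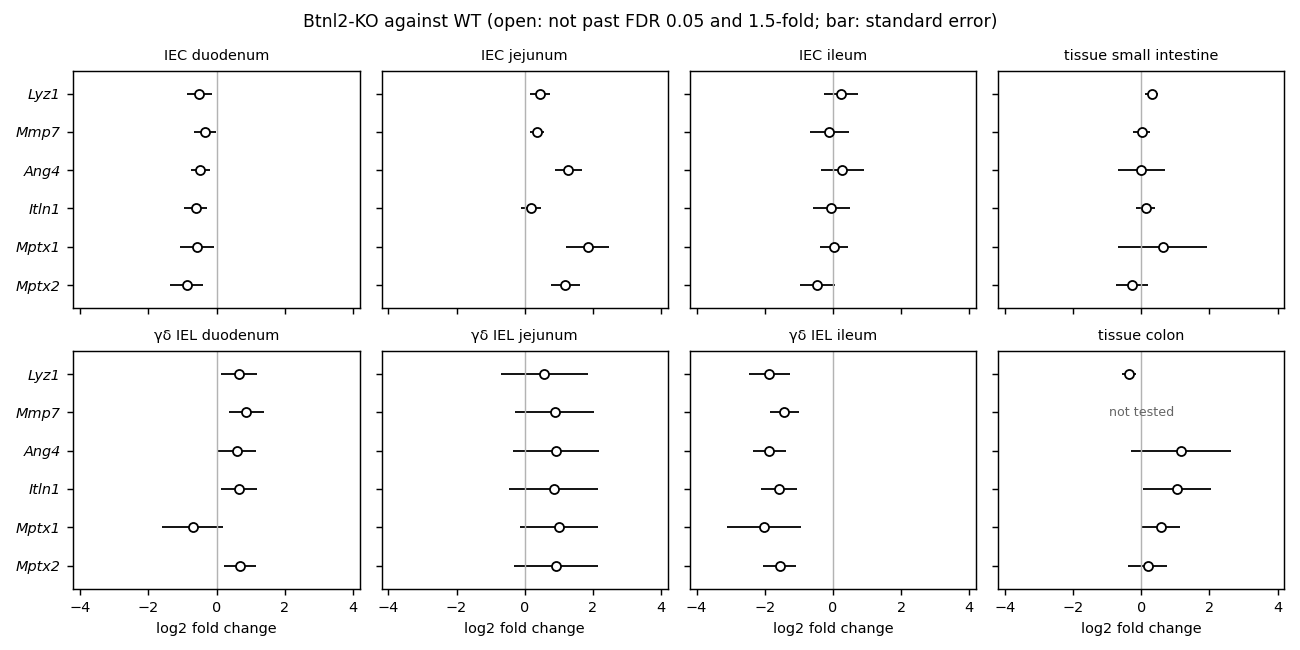
*Btnl2*-KO against WT for the 6 genes in 8 comparisons. Points are log2 fold changes by edgeR and bars standard errors. No point passes an FDR of 0.05 with 1.5-fold, and the 6 γδ IEL ileum values lie between -2.03 and -1.43. *Mmp7* was not tested in colon for low counts.

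In duodenal IECs all 6 members had negative log2 fold changes, from -0.88 to -0.33, with FDRs of 0.99997. *Ang4* was at 94.7 and 135 CPM in *Btnl2*-KO and at 161, 177 and 147 CPM in WT, the single member whose groups did not overlap (11.0% of all genes), and its log2 fold change was -0.48 ± 0.28. Without library 1003459, which went against its label, the *Ang4* value was -0.26 ± 0.33, resting on 1 *Btnl2*-KO library.

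In jejunal IECs the 3 members with an unadjusted p under 0.05 were *Ang4*, *Mptx1* and *Mptx2*. *Ang4* was at 807, 1377 and 382 CPM in *Btnl2*-KO and 391, 357 and 304 CPM in WT. *Mptx2* was at 1303, 2387 and 607 CPM in *Btnl2*-KO and 723, 694 and 448 CPM in WT. *Mptx1* was at 5.63, 19.6 and 3.15 CPM in *Btnl2*-KO and 3.30, 2.88 and 1.32 CPM in WT. In all 3 genes the highest value came from library 1003474, the jejunal *Btnl2*-KO library with *Btnl2* at 19.5 CPM and *Fabp6* at 484 CPM, and the groups overlapped, as they did for all 6 members (17.3% of all genes did not). The log2 fold changes were 1.27 ± 0.39 for *Ang4*, 1.85 ± 0.63 for *Mptx1* and 1.19 ± 0.43 for *Mptx2*, each with an FDR of 0.5684. Without that library they were 0.77 ± 0.29, 0.81 ± 0.40 and 0.63 ± 0.34, each with an FDR of 0.667.

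In ileal IECs *Lyz1* was at 1503, 4680 and 5088 CPM in *Btnl2*-KO and at 2940 and 3475 CPM in WT, so that the *Btnl2*-KO libraries lay on both sides of WT (log2 fold change 0.23 ± 0.51, FDR = 0.934). The lowest value of each member in the 5 ileal IEC libraries came from 1003481, except for *Mptx1*, and without that library *Lyz1* gave 0.60 ± 0.19 (FDR = 0.855). No member's groups were apart in ileal IECs, where 20.4% of all genes were.

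In ileal γδ IELs all 6 members were lower in *Btnl2*-KO by point estimate, with FDRs of 0.432 to 0.601. *Lyz1* was at 2362, 1303 and 5724 CPM in *Btnl2*-KO and at 5506, 17589, 6233 and 17026 CPM in WT. A single *Btnl2*-KO library reached into the WT range, and the log2 fold change was -1.88 ± 0.60 (unadjusted p = 0.0105, FDR = 0.451). *Ang4* was at 264, 297 and 378 CPM in *Btnl2*-KO and at 470, 2358, 780 and 1048 CPM in WT (-1.87 ± 0.49, FDR = 0.432). *Mptx2* was at 173, 371 and 407 CPM in *Btnl2*-KO and at 480, 1588, 531 and 1240 CPM in WT (-1.57 ± 0.48, FDR = 0.445). For *Ang4* and *Mptx2* every *Btnl2*-KO library was below every WT library, 2 of 6 members where 6.89% of all genes were apart.

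*Mmp7* was at 61.2, 76.1 and 122 CPM in *Btnl2*-KO and 97.6, 336, 183 and 329 CPM in WT (log2 fold change -1.43 ± 0.42, FDR = 0.438). *Itln1* was at 1582, 1101 and 2373 CPM in *Btnl2*-KO and 2070, 9254, 2749 and 6416 CPM in WT (-1.58 ± 0.53, FDR = 0.468). In both genes the highest *Btnl2*-KO library overlapped the lowest WT library. *Mptx1*, at 0.572 to 2.72 CPM in *Btnl2*-KO and 0.119 to 12.8 CPM in WT, gave -2.03 ± 1.08 (FDR = 0.601). DESeq2 called 5 members and 1.38% of all genes lower, with an FDR of 0.00417 for *Ang4*, and limma-voom called 4 members and 6.47% of all genes lower, while a fit over all 22 γδ IEL libraries called 0.

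The lower members in ileal *Btnl2*-KO γδ IEL libraries went with lower levels of other epithelial genes. The median log2 fold change was -1.70 for 24 α-defensin genes, -1.55 for 7 goblet cell genes, -1.41 for 4 ileal enterocyte genes, -1.37 for 12 pan-epithelial genes, 0.27 for 10 γδ IEL genes and 0.06 for all genes, and no gene of these lists was called. The pan-epithelial genes summed to 1025 to 3669 CPM in the 3 *Btnl2*-KO and 3464 to 9223 CPM in the 4 WT libraries, and all 12 were detected in both groups. The ratio of the members' sum to that pan-epithelial sum was 1.54 to 3.07 in *Btnl2*-KO and 1.27 to 3.75 in WT, overlapping throughout. With the pan-epithelial level as a covariate the log2 fold changes were -0.82 for *Lyz1*, -0.83 for *Mmp7*, -1.26 for *Ang4*, -0.68 for *Itln1*, -2.12 for *Mptx1* and -1.35 for *Mptx2*, with FDRs of 0.475 to 0.637.

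In duodenal and jejunal γδ IELs the point estimates were mostly positive, 5 of 6 in duodenum and 6 of 6 in jejunum, with FDRs from 0.771 to 0.997. *Lyz1* was at 1848, 1212 and 4204 CPM in duodenal *Btnl2*-KO against 611, 3287, 1308 and 913 CPM in WT (log2 fold change 0.66 ± 0.54). In jejunum it was at 4235, 25.9, 765 and 6963 CPM in *Btnl2*-KO against 587, 2374, 478 and 4778 CPM in WT (0.57 ± 1.27, and 0.98 ± 0.90 without library 1105592). The groups overlapped for all 6 members in both segments, where 3.01% and 3.32% of all genes did not. Pan-epithelial sums were 3441 to 5829 CPM in duodenal *Btnl2*-KO, 3293 to 5327 in duodenal WT, 605 to 5535 in jejunal *Btnl2*-KO and 2050 to 5686 in jejunal WT libraries.

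In small intestine tissue *Lyz1* ranged from 3519 to 7633 CPM with a median of 5946 in 7 *Btnl2*-KO libraries, and from 3060 to 5619 CPM with a median of 4547 in 7 WT libraries (log2 fold change 0.31 ± 0.19, FDR = 0.319). The groups overlapped broadly, as for the other members (0.982% of all genes did not), whose log2 fold changes lay between -0.27 and 0.64. Without the 4 doubted libraries *Lyz1* gave 0.17 ± 0.22 and the 6 members lay between -0.73 and 0.17, with FDRs of 0.334 to 0.972. In colon tissue *Lyz1* was at 9.42 to 23.8 CPM with a median of 14.4 in *Btnl2*-KO and 12.9 to 26.2 CPM with a median of 21.1 in WT (-0.37 ± 0.21, FDR = 0.972). All 5 members tested in colon overlapped between genotypes (0.222% of all genes did not), and *Mmp7*, with 0 to 9 counts a library, was too low to test.

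A single colon library set the genotype values of *Ang4* and *Mptx1*. In colon *Ang4* was at 39.5, 6.80, 5.78, 145, 2.35, 19.2 and 2416 CPM in *Btnl2*-KO, the last in library 964931, and *Mptx1* was at 1382 to 2501 CPM in 6 *Btnl2*-KO libraries and at 15354 CPM in 964931. The log2 fold changes were 1.16 ± 1.47 for *Ang4* and 0.58 ± 0.56 for *Mptx1* with that library, and -2.24 ± 1.12 and -0.45 ± 0.23 without it (FDR = 0.870 for both). *Retnlb*, a goblet cell resistin-like protein, and *Reg4*, a C-type lectin, chosen after their values were seen, were at 629 and 1727 CPM in 964931 against 0.0434 to 52.5 and 54.6 to 880 CPM in the other 12 colon libraries, and their part in the *Ang4* and *Mptx1* values was not tested.

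Whether the genotype difference itself changed along the gut was tested as an interaction, and no member was called. The share of all genes called was 0% for IEC ileum against duodenum, 0% for γδ IEL ileum against duodenum and 0.0193% for colon against small intestine tissue. *Lyz1* gave 0.74 ± 0.62 in IECs (FDR = 0.996; 0.72 ± 0.46 without the 3 doubted libraries), -2.55 ± 1.52 in γδ IELs (FDR = 0.716) and -0.67 ± 0.29 in tissue (FDR = 0.343; -0.55 ± 0.31 without the 4 doubted libraries). In the fits with all libraries, the tissue value was the single member interaction at an unadjusted p under 0.05. There 6.00% of all genes were lower, against 2.79% of all genes in either direction in IECs and 5.73% in γδ IELs. Without the 3 doubted IEC libraries the 6 members gave 0.45 to 1.11 in IECs. That fit rests on library 1003464 alone for duodenal *Btnl2*-KO. In γδ IELs all 6 members gave negative values, -2.55 to -1.37, and with the pan-epithelial level as a covariate *Lyz1* gave 0.092 ± 0.91.

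*Ang4* and *Mptx1* were far above the rest in 4 small intestine libraries, 2 of each genotype. *Mptx1* was at 216 CPM in *Btnl2*-KO 964941, 234 in *Btnl2*-KO 964945, 180 in WT 964946 and 96.0 in WT 964952, and at 1.56 to 9.39 CPM in the other 10 libraries. *Ang4* was at 2630, 3734, 3495 and 3088 CPM in those 4 libraries in the same order and at 326 to 897 CPM in the other 10. *Itln1* was also above the rest, at 2666, 3810, 3128 and 3839 CPM against 1235 to 2162 CPM. *Lyz1* did not follow this pattern, with 3519, 3741, 4187 and 5619 CPM in the same 4 libraries and 3060 to 7633 CPM in the other 10. *Mptx2* did not set all 4 apart. In 964941, where *Mptx1* amounted to 50.4% of *Mptx2*, the *Mptx2* level was below that of WT 964949, which is outside the 4. *Car1* was at 0.05 to 0.61 CPM in the 4 libraries, and *Mptx1* was at 8.40 and 3.74 CPM in the 2 libraries with *Car1* at 846 and 1624 CPM.

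In the same 4 libraries *Clps*, a colipase gene listed here with Paneth cell genes, was at 301, 362, 459 and 287 CPM against 42.0 to 77.9 CPM in the other 10, and *Cd24a*, a surface protein of crypt base cells, was at 622, 475, 566 and 466 CPM against 195 to 257 CPM. Both belong to the list of 16 regulators and niche factors, whose other genes are not given for these libraries. *Clps* was the gene most like *Ang4* over all 14 small intestine libraries (r = 0.99), so its values are no separate support. The part of *Clps* and *Cd24a* in the *Ang4* and *Mptx1* levels was not tested. The 4 libraries carry 2 labels of each genotype, no label sets them apart, and no comparison was made with them as a group. Between *Btnl2*-KO and WT the *Mptx1* difference in small intestine was 0.64 ± 1.31 (FDR = 0.788), and it was -0.035 without 964941 and -0.16 without 964945.

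**Figure D4:**
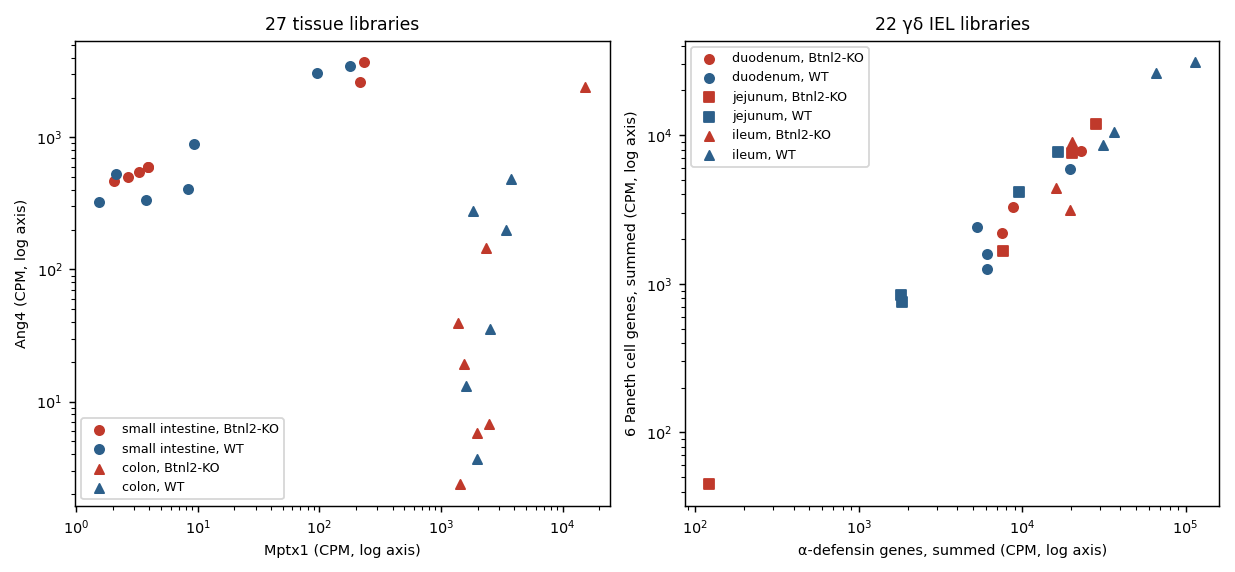
Left, *Ang4* against *Mptx1* in 27 tissue libraries, both in CPM on log axes. Right, the sum of the 6 genes against the sum of the α-defensin genes in 22 γδ IEL libraries on log axes; 4 small intestine libraries stand apart at *Mptx1* of 96.0 to 234 CPM, and the jejunal library 1105592 stands lowest on the right.

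The 6 genes varied together to a different degree in each fraction. Over 15 gene pairs, Pearson's r of log2(CPM + 1) had a median of 0.82 (0.42 to 0.89) over 16 IEC libraries, 0.97 (0.53 to 0.99) over 22 γδ IEL libraries, 0.68 (-0.51 to 0.96) over 14 small intestine libraries and 0.20 (-0.24 to 0.92) over 13 colon libraries. Without the doubted libraries the median was 0.81 (0.51 to 0.94) over 13 IEC libraries and 0.64 (-0.74 to 0.99) over 10 small intestine libraries. The γδ IEL values include library 1105592, with *Lyz1* at 25.9 CPM. The colon values include library 964931, with *Mptx1* at 15354 CPM, and *Mmp7* at 0 to 9 counts. Neither set was recomputed without these. Libraries of a fraction share their dissection, segment mix and depth, so these values describe the libraries and carry no test.

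The genes most like each member were read over the IEC and the small intestine libraries among 7980 and 9931 genes with a mean of at least 10 CPM. In IECs the nearest gene was *Defa37* (r = 0.90) for *Lyz1* after an unnamed ID, *Defa29* (0.92) for *Mmp7*, *Defa30* (0.92) for *Ang4* and *Defa42* (0.90) for *Mptx2*, all α-defensin genes. *Itln1* instead followed *Pnliprp2*, a lipase-related gene (0.98), and *Clps* (0.90), and *Mptx1* followed *Fam114a2* (0.88), *Ggnbp2* (0.87) and *Srp9* (0.87) before *Mptx2* (0.87). In small intestine tissue *Ang4* followed *Clps* (0.99) and *Pnliprp2* (0.98), *Itln1* followed *Defa26* (0.95) and *Mptx1* followed *Pnliprp2* (0.99) and *Alox5* (0.98). *Mmp7* followed *Wars* (0.93) and *Mptx2* (0.90), and *Mptx2* followed *Pla2g2f* (0.98). *Lyz1* there had no α-defensin among its 5 nearest genes, which were *Mreg* (0.88), *Irf8*, *Igtp*, *Gm12250* and *Gzmb*.

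The nearest genes in IECs changed without the 3 doubted libraries. Over the other 13 libraries the nearest gene was *Ang4* (r = 0.93) for *Lyz1*, *Slc1a4* (0.94) for *Mmp7*, *Itln1* (0.94) for *Ang4*, *Defa3* (0.87) for *Mptx1* and an unnamed ID (0.89) for *Mptx2*, and again *Pnliprp2* (0.95) for *Itln1*. That unnamed ID had a mean of 58078 CPM over all 16 IEC libraries, a large part of their counts. In small intestine tissue without the 4 doubted libraries, *Pnliprp2* was nearest to both *Ang4* (0.99) and *Mptx1* (0.99), *Wars* to *Mmp7* (0.88) and *Pla2g2f* to *Mptx2* (0.98), while *Dvl2* (0.95) came first for *Lyz1* and *Gpt2* (0.96) for *Itln1*.

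Relatives of the members were read in the same libraries. *Mmp14*, a membrane-bound metalloproteinase, was at 12.9 to 30.8 CPM in IECs, and *Mmp2*, *Mmp3*, *Mmp9*, *Mmp10* and *Mmp13* stayed at or below 0.553 CPM there. *Lyz2* was at 2.25 to 10.8 CPM in IECs and 0 to 5.67 CPM in γδ IELs, against 59.9 to 147 CPM in small intestine and 36.7 to 122 CPM in colon tissue. Among the angiogenins, *Ang* was at 4.499 to 12.5 CPM in IECs and *Ang5* was at 0 in all 65 libraries. The serum pentraxin genes *Apcs* and *Crp* stayed at or below 0.62 CPM in every bulk library.

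Single-cell libraries of γδ IELs, 1 per segment and genotype from mice labelled 8 to 10 weeks old, showed which barcodes held these transcripts. According to the methods of the study, these cells were aliquots of the sorted samples, pooled by segment and genotype. Once barcodes under 500 detected genes or above 10% mitochondrial counts were removed, 3956 duodenal *Btnl2*-KO, 3991 duodenal WT, 3843 jejunal *Btnl2*-KO, 3617 jejunal WT, 4678 ileal *Btnl2*-KO and 3739 ileal WT barcodes remained, with medians of 4869 to 5463 unique molecular identifiers (UMIs). Pairs of libraries shared 19 to 31 barcode sequences.

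The 6 genes summed to 41, 1286, 1146, 9508, 32007 and 2269 UMIs in that order. As CPM of all UMIs this was 1.97 (95% exact Poisson interval 1.42 to 2.68) in duodenal *Btnl2*-KO, 57.7 (54.6 to 60.9) in duodenal WT, 55.0 (51.9 to 58.3) in jejunal *Btnl2*-KO, 495 (485 to 505) in jejunal WT, 1139 (1127 to 1152) in ileal *Btnl2*-KO and 109 (105 to 114) in ileal WT. The intervals cover counting error only, and with 1 library a group there is no test between genotypes. The ileal *Btnl2*-KO library was the highest here and so above ileal WT. In the bulk γδ IEL table the ileal *Btnl2*-KO sum was below that of ileal WT by median, at 4444 against 18273 CPM, with overlapping ranges.

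Very few barcodes carried the sum. Barcodes with at least 10 UMIs of the 6 genes numbered 1, 4, 7, 5, 8 and 7 in the same order, and held 26.8%, 98.0%, 97.0%, 99.2%, 99.7% and 97.2% of these UMIs. The top barcode alone held 11, 1187, 844, 9241, 18562 and 1675 UMIs. Of the barcodes counted as high, 0, 3, 6, 4, 8 and 7 also had at least 10 α-defensin UMIs, and 1, 3, 5, 4, 5 and 7 had a UMI of *Epcam*, an epithelial adhesion molecule. A UMI of *Cd3e* or *Cd3g*, subunits of the T cell receptor complex, was found in 1, 2, 5, 3, 5 and 4 of them. Of the remaining barcodes 33.1 to 41.0% had an *Epcam* UMI and 99.3 to 99.7% a *Cd3e* or *Cd3g* UMI. No doublet caller was run, and doublets of a T cell with another cell were not told apart from single cells.

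*Lyz1* gave the most UMIs of the 6 genes in 5 of the 6 libraries, with 16856 of the 32007 in ileal *Btnl2*-KO, and *Itln1* in ileal WT, with 1516 of 2269. *Mptx1* gave 999 UMIs beside 1939 of *Mptx2* in ileal *Btnl2*-KO and 159 beside 450 in jejunal WT. The counts were 56 beside 39 in jejunal *Btnl2*-KO, 18 beside 22 in ileal WT, 2 beside 2 in duodenal *Btnl2*-KO and 2 beside 6 in duodenal WT. In bulk γδ IEL libraries *Mptx1* amounted to 0 to 10.3% of *Mptx2*, with a median of 0.770%. The split of UMIs between the 2 pentraxins carries the limit of their shared windows.

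**Figure D5:**
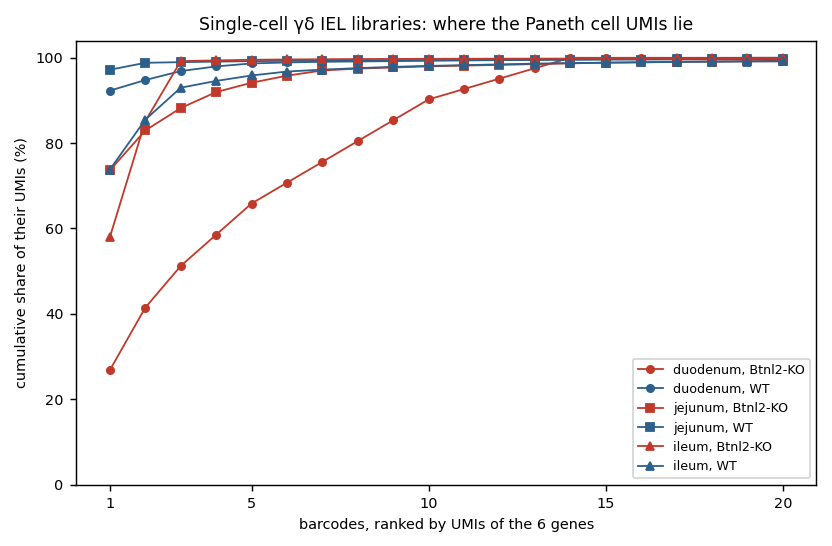
Cumulative share of the UMIs of the 6 genes over barcodes ranked by those UMIs, in 6 single-cell γδ IEL libraries (red, *Btnl2*-KO; blue, WT). In 5 libraries the first 10 barcodes hold 98.0 to 99.8% of the UMIs, and the duodenal *Btnl2*-KO line rises slowly and rests on 41 UMIs.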

How the data were processed

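Bulk RNA was sequenced from IECs, sorted γδ IELs and tissue, and γδ IELs also as single cells. Per the methods of the study, the authors mapped bulk reads in ArrayStudio and summarised sense-strand exon reads with RSEM, and the deposited values are expected counts per gene, not normalized. The deposited single-cell values are UMI counts per gene and barcode from the authors' Cell Ranger output. The submitters' processing notes name GRCm38. Library kits differ between the labels (a stranded mRNA kit) and the study's methods, and the labelled ages of the γδ IEL mice differ from those in its text. Mapping to shared stretches can move reads between *Lyz1* and *Lyz2* and between *Mptx1* and *Mptx2*.

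Expected counts were rounded to whole numbers. The 100 gene IDs with no symbol in the reference tables (0.253 to 9.24% of a library's counts) stayed in library sizes. Per-sample columns with no matching sample numbered 1 and were not used. A gene was tested if the number of libraries holding 10 or more counts of it reached the size of the smaller group, and libraries were scaled by TMM (factors 0.7227 to 1.136) and compared with edgeR 4.0.16 (glmQLFit, glmQLFTest; R 4.3.3), with Benjamini-Hochberg adjustment over all genes tested. CPM uses TMM library sizes. DESeq2 1.42.0 and limma-voom 3.58.1, other filters, joint fits, covariates and leaving out each library were alternatives. DESeq2 is the tool the study names for its own tests. The pan-epithelial covariate and the fits without 1105592 or without small intestine libraries holding colonic or proximal genes were chosen after seeing the data. The fits were tested on simulated data. Depth was 13444958 to 38258472 counts, and no replicate pair agreed within sampling noise (chi-square per degree of freedom at least 5.28). Nothing states that tissue libraries came from separate animals, so p-values measure the spread between libraries.

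The genes and lists were chosen with earlier results of these data known. Named are the 6 genes in every comparison, *Btnl2*, genes of the marker lists, the relatives of each gene and the 5 genes most like each by Pearson's r. *Retnlb* and *Reg4* are in no list and were chosen after their values were seen. Sequences were read from RefSeq promoter tables by gene ID, with all 6 genes matched. Protein sequences were not used here. In single-cell libraries, barcodes with 500 or more detected genes and no more than 10% mitochondrial counts were kept.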

Additional observations from a re-analysis of the deposited data

Results flagged for a closer look

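A sample was set apart where its gap to the nearest of its group, relative to the group's range, was over Dixon's 95% critical value, a test that flags about 1 in 20 groups by chance. It was applied to 48 sets of values of 4 to 10 libraries and marked 5. Library 964931 of *Btnl2*-KO colon accounted for 4 of them, with *Ang4* at 2416 CPM, *Itln1* at 49.1 CPM, *Mptx1* at 15354 CPM and *Mptx2* at 21.0 CPM, each the highest of 7 libraries. *Lyz1* in the same library was at 14.4 CPM, the median of its group. *Mmp7* stood out in *Btnl2*-KO colon library 964928 at 0.605 CPM, which rests on 9 counts.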

How the results depend on the processing

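No paired analysis was possible because the replicate numbers are library numbers, no groups share any, and the labels do not tie segments to a mouse. Of 336 values for single genes under alternatives other than leaving out a library, 279 kept direction and side of the threshold, 22 moved past it, 27 fell short of it and 8 reversed. Of 127 counts and other values 110 were alike and 17 moved. The causes were not tested.

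For *Btnl2*-KO against WT in γδ IEL ileum, edgeR called 0 members, DESeq2 5 and limma-voom 4. For IEC jejunum against duodenum the count was 0, but 1 with DESeq2, limma-voom, no low-count filter or both genotypes without the 3 libraries that went against their labels, and 0 to 1 on leaving out a library (1 without 1003466). For IEC ileum against duodenum it was 0, but 1 with DESeq2, 2 with limma-voom and 3 with both genotypes without those libraries, and 0 to 3 on leaving out a library (3 without 1003466). For γδ IEL jejunum against duodenum leaving out a library gave 0 to 1 (1 without 1105581). For γδ IEL ileum against duodenum the count of 4 became 0 in a fit of all libraries, 3 in that fit without 1105592, and 1 with both genotypes, with or without 1105592 (2 to 5 on leaving out a library). For ileum against jejunum the count of 5 became 0 in a fit of all libraries, 5 in that fit without 1105592, and 0 with both genotypes, with or without 1105592 (2 to 6 on leaving out a library). Colon against small intestine gave 5 to 6. Without barcode filters the single-cell sum was 59.1 CPM in jejunal *Btnl2*-KO and 172.6 CPM in ileal WT.

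Directions reversed for these log2 values. *Mptx1* in small intestine by genotype was -0.41 with limma-voom (-0.16 to 1.75 on leaving out a library). In colon by genotype, *Ang4* was -1.99 with DESeq2 and -0.29 with limma-voom (-2.24 to 1.86), and *Mptx1* -0.41 and -0.033 (-0.45 to 0.74). *Lyz1* by genotype was -0.049 to 0.60 in IEC ileum and -0.33 to 1.41 in γδ IEL jejunum on leaving out a library. *Lyz1* in γδ IEL jejunum against duodenum was -0.45 with limma-voom (-0.43 to 1.10). With the pan-epithelial covariate, *Mptx1* in γδ IEL ileum against duodenum was -3.42 and the *Lyz1* γδ IEL interaction 0.092.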
